A study of Mus musculus with 12 samples.

Results

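The Cyp4a fatty acid hydroxylase cluster was described over 12 mouse liver libraries. Its 6 members, Cyp4a10, Cyp4a14, Cyp4a31, Cyp4a32, Cyp4a12a and Cyp4a12b, are the rows with those symbols among the 56748 genes of the deposited count table. They were named with the results of the male knockout comparison in these data known, so their values in that comparison describe the genes and carry no test. All 6 members were among the 14003 genes with enough counts to be tested. Cyp4a12a and Cyp4a12b reached that through the male libraries alone.

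The libraries came from poly(A)-selected RNA of whole liver of co-housed mice on normal chow, 16 weeks old. Male and female knockouts belonged to the line 129/Sv-Cyp2e1tm1Gonz/J, which carries a targeted allele of Cyp2e1, a cytochrome P450 that oxidises ethanol and other small molecules. Male and female wild types belonged to the line 129S1/SvImJ. Each of the 4 groups (male knockout, male wild type, female knockout, female wild type) held 3 biological replicates. Line and Cyp2e1 allele cannot be told apart, because all knockouts were of one line and all wild types of the other.

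Cyp4a enzymes are haem proteins of the endoplasmic reticulum that add a hydroxyl group to the terminal (omega) carbon of medium- and long-chain fatty acids, arachidonic acid among them. The hydroxylated acid can be oxidised to a dicarboxylic acid and shortened in peroxisomes. In mouse liver Cyp4a10 and Cyp4a14 are classic targets of the fatty acid-activated nuclear receptor PPARalpha. Cyp4a12a is known as a male-predominant enzyme under the control of androgens and of the pulsatile secretion of growth hormone, and Cyp4a14 as a female-predominant one.

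All 6 genes lie within 323 kb of chromosome 4 (4:115156243-115478799, mm39). In order along the chromosome they are Cyp4a12a (ENSMUSG00000066071, 115156243 to 115190012), Cyp4a12b (ENSMUSG00000078597, 115268821 to 115296231), Cyp4a14 (ENSMUSG00000028715, 115343397 to 115353339), Cyp4a10 (ENSMUSG00000066072, 115375461 to 115390846), Cyp4a31 (ENSMUSG00000028712, 115420846 to 115436212) and Cyp4a32 (ENSMUSG00000063929, 115458166 to 115478799). All are annotated as protein-coding. Cyp4a14 lies on the minus strand and the other members lie on the plus strand.

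Some of the genes are near copies of each other, which bears on how far reads can be assigned to one of them. A stretch of 60 coding bases around the cysteine loop that holds the haem iron is given for each member, read from the GENCODE vM21 transcripts of the C57BL/6J reference (GRCm38), 5′ to 3′ on the coding strand. Capitals mark bases that differ from Cyp4a10.
Cyp4a10: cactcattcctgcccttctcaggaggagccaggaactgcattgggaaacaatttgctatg
Cyp4a31: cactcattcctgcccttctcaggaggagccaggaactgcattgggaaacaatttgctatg
Cyp4a32: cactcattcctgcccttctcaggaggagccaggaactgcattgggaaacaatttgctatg
Cyp4a14: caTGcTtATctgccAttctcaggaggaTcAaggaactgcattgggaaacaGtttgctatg
Cyp4a12a: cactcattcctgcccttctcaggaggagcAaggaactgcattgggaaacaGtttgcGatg
Cyp4a12b: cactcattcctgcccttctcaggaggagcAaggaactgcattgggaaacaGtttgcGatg
Cyp4a10, Cyp4a31 and Cyp4a32 did not differ at any of these bases, Cyp4a12a and Cyp4a12b differed from Cyp4a10 at the same 3, and Cyp4a14 differed at 9.

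The copies are told apart elsewhere. The next lines give, for each set of near copies, the 60-base window of coding sequence with the most positions that vary among its members. Bases are counted from 1 at the start codon, and capitals mark bases that differ from the first gene of each set. Bases 200 to 259 are given for Cyp4a10, Cyp4a31 and Cyp4a32.
Cyp4a10: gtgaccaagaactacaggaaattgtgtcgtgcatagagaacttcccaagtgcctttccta
Cyp4a31: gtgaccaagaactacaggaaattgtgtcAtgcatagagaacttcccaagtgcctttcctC
Cyp4a32: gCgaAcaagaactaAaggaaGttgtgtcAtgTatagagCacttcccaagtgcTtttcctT
Bases 624 to 683 are given for the Cyp4a12 pair.
Cyp4a12a: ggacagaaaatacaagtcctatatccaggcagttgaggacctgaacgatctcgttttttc
Cyp4a12b: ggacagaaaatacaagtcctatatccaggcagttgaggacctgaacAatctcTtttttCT
In these windows Cyp4a31 differed from Cyp4a10 at 2 bases and Cyp4a12b from Cyp4a12a at 4, while Cyp4a32 differed from Cyp4a10 at 9. The first window was chosen over its whole set, so it need not be where Cyp4a31 and Cyp4a10 differ most. Over the aligned coding sequence Cyp4a31 and Cyp4a10 differed at 52 bases.

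Over the aligned coding sequence Cyp4a12a and Cyp4a12b were 98.49% identical, with 23 differing bases. Cyp4a10 was 97.18% identical to Cyp4a32 and 96.59% to Cyp4a31, and Cyp4a31 and Cyp4a32 were 96.01% identical. Cyp4a14 stood apart, at 76.04% to 77.61% identity with every other member. Of all 100-base windows of a transcript, 35.82% for Cyp4a12a, 36.24% for Cyp4a12b, 20.06% for Cyp4a32, 12.74% for Cyp4a10 and 8.216% for Cyp4a31 also occurred in another member, and none did for Cyp4a14. The mice are of 129 lines, whose own sequence was not used here, and the counting program and its treatment of shared reads were not given in the sources used here. Values of Cyp4a10, Cyp4a31, Cyp4a32, Cyp4a12a and Cyp4a12b are therefore also given as sums over near copies, and each single value of these 5 genes is uncertain to the extent that reads were shared.

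**Figure D1:**
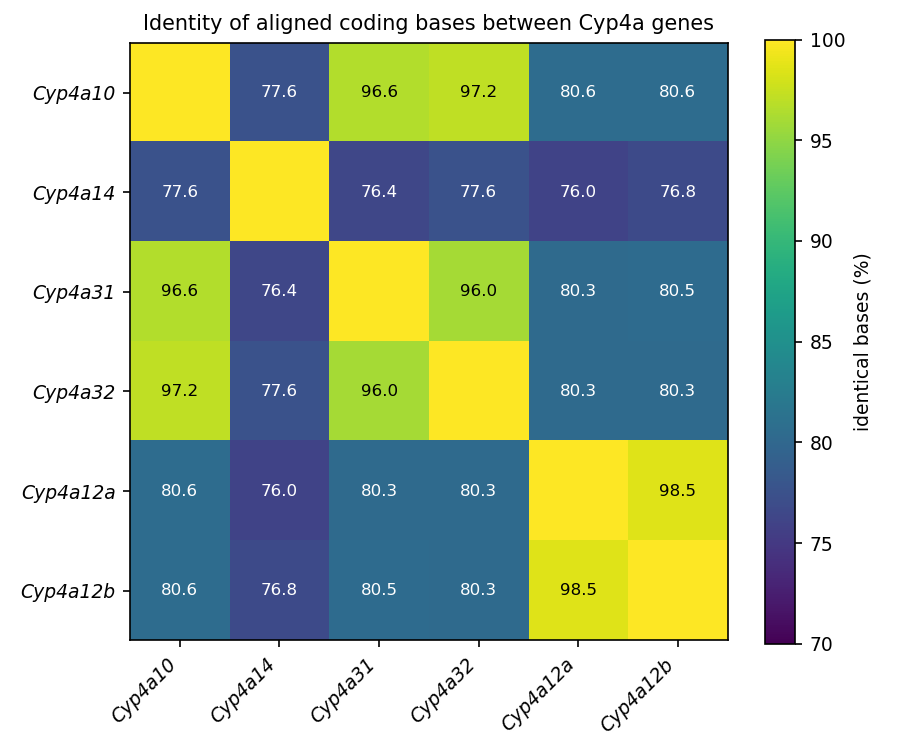
Percent of identical bases (colour scale) over the aligned coding sequence of each pair of Cyp4a genes, which run along both axes. Cyp4a10, Cyp4a31 and Cyp4a32 form one block of 96.01% to 97.18% identity and the Cyp4a12 pair another at 98.49%, while Cyp4a14 is at most 77.61% identical to any other gene.

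Total counts per library ran from 15167730 to 25082532. Cyp2e1 stood at 318 to 403 CPM (counts scaled to a common library size, normalised by TMM) in male knockouts against 10374 to 11480 CPM in male wild types, and at 230 to 323 CPM in female knockouts against 6213 to 7076 CPM in female wild types. Pericentral hepatocyte markers (9 of 9 detected) summed to 3413 to 4744 CPM in female knockouts and 4819 to 5463 CPM in female wild types. In males they summed to 4758 to 5609 CPM in knockouts and 4935 to 5255 CPM in wild types. The lower sum in female knockouts was not shared by all 9 markers. By edgeR 3 of them were called higher there (adjusted p under 0.05) and 2 lower, against 17.7% and 18.8% of all genes. Their median log2 fold change was 0.07, against 0.05 over all genes. Markers of kidney, another site of Cyp4a expression, summed to at most 1.21 CPM in any library, and Kap and Umod had 0 counts in all 12. The slope of log2 level on log2 gene length ran from 0.09 to 0.29 in female knockouts and from -0.23 to -0.15 in female wild types, while the male groups overlapped. In bulk tissue, fewer cells of a type and less RNA per cell cannot be told apart.

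In male livers the Cyp4a12 pair was by far the most abundant part of the cluster. Cyp4a12a had 737, 401 and 784 CPM in male knockouts, against 655, 793 and 470 CPM in male wild types. It had 0, 4 and 8 counts in female knockouts, against 2, 0 and 3 counts in female wild types. Each male library thus lay above every female library, and the male groups overlapped each other. Cyp4a12b had 91.6, 53.1 and 115 CPM in male knockouts, against 84.0, 144 and 76.5 CPM in male wild types. It had 0 counts in all 3 female knockout libraries, against 1 count in each female wild type library. A count of 0 over the female knockouts allows up to 3 counts, or 0.0420 CPM, by counting error alone.

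Female livers instead held Cyp4a10 and Cyp4a14, and these were low in males. Cyp4a10 had 27.9, 27.6 and 36.0 CPM in male knockouts, against 5.90, 5.42 and 1.86 CPM in male wild types. In females it had 174, 185 and 151 CPM in knockouts, against 189, 173 and 135 CPM in wild types. The female groups overlapped, the male groups did not, and no male library reached a female one. Cyp4a14 had 13.5, 23.0 and 12.4 CPM in male knockouts, against 1.59, 0.335 and 0.186 CPM in male wild types. Those wild type values rest on 34, 6 and 3 counts, so the lowest of them carry a large counting error. In females Cyp4a14 had 206, 307 and 212 CPM in knockouts, against 268, 132 and 162 CPM in wild types, and the groups overlapped. For both genes every male knockout library lay above every male wild type library, as for 5.1% of all genes tested.

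Cyp4a31 and Cyp4a32, near copies of Cyp4a10 about whose own substrates less is known, were minor members. Cyp4a31 had 3.24, 2.32 and 4.34 CPM in male knockouts, against 0.703, 0.615 and 0.434 CPM in male wild types. It had 13.2, 8.43 and 8.25 CPM in female knockouts, against 4.77, 3.63 and 4.37 CPM in female wild types. In both sexes every knockout library lay above every wild type library, an order found for 5.1% of all genes in males and 27.6% in females. Cyp4a32 had 11.1, 11.5 and 14.5 CPM in male knockouts, against 5.90, 15.3 and 5.08 CPM in male wild types. It had 8.23, 5.88 and 5.91 CPM in female knockouts, against 4.30, 2.36 and 4.18 CPM in female wild types. Male wild type replicate 2 was the highest of the 12 libraries for Cyp4a32 and exceeded the male knockouts, so the male groups overlapped, whereas the female groups did not.

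**Figure D2:**
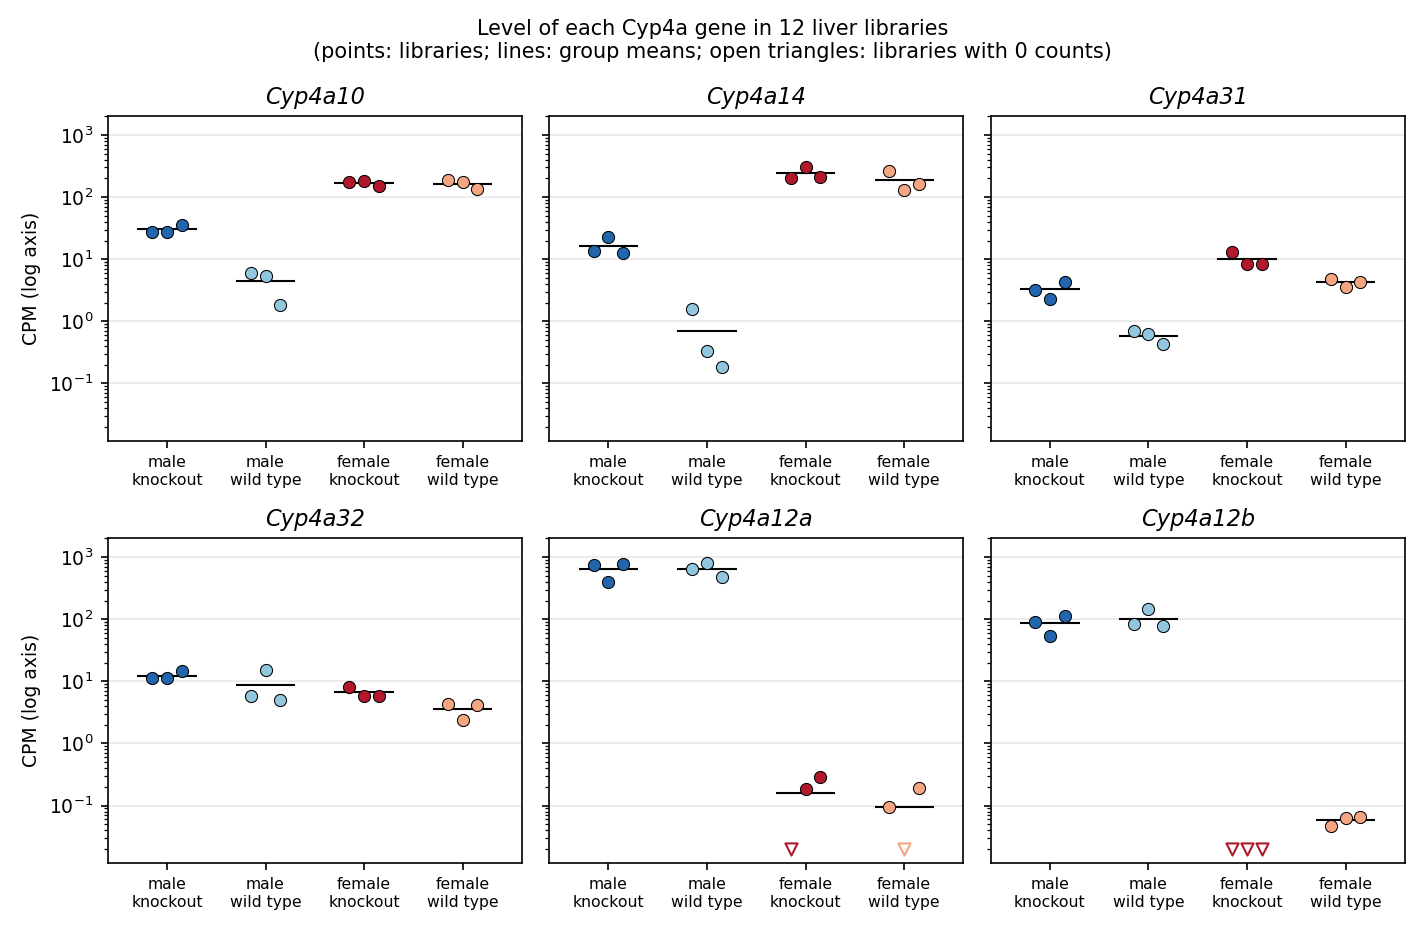
CPM (log axis) of each Cyp4a gene in the 12 libraries, with a horizontal line at each group mean and open triangles for libraries with 0 counts. Both Cyp4a12 genes lie at 53.1 CPM or more in all male libraries and at 0.293 CPM or less in all female libraries, and Cyp4a10 and Cyp4a14 are lowest in male wild types.

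Set per kilobase of gene length, the order of the members differed between the sexes. In male knockouts Cyp4a12a led at 264 ± 86.3 CPM per kilobase (SD, n = 3). Cyp4a12b followed at 36.1 ± 13.0, Cyp4a10 at 14.5 ± 2.27, Cyp4a32 at 8.07 ± 1.22, Cyp4a14 at 6.27 ± 2.25 and Cyp4a31 at 1.31 ± 0.40 CPM per kilobase. Of these neighbours the libraries of Cyp4a32 and Cyp4a14 overlapped and the others did not. In male wild types Cyp4a12a stood at 264 ± 66.9 and Cyp4a12b at 42.4 ± 15.5 CPM per kilobase. Cyp4a32 came next there at 5.71 ± 3.70, ahead of Cyp4a10 at 2.08 ± 1.05, and Cyp4a14 (0.271 ± 0.297) and Cyp4a31 (0.233 ± 0.0546) overlapped at the bottom. Per kilobase Cyp4a10 thus lay above Cyp4a32 in every male knockout library and below it in every male wild type library. In male wild type replicate 1 both genes had 126 counts, so their order there rests on gene length alone. The length given for Cyp4a32 in the table, 1536 bases, barely exceeds its 1527 coding bases, so its level per kilobase is set on a shorter gene model than those of the other members.

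In female knockouts Cyp4a14 (92.9 ± 21.7 CPM per kilobase) and Cyp4a10 (80.6 ± 8.23) overlapped at the top, and in female wild types Cyp4a10 (78.5 ± 13.3) and Cyp4a14 (72.0 ± 27.5) did so. Cyp4a32 and Cyp4a31 followed at 4.34 ± 0.877 and 3.97 ± 1.12 CPM per kilobase in female knockouts, and at 2.35 ± 0.708 and 1.70 ± 0.230 in female wild types, overlapping in each group. The Cyp4a12 pair came last, at 0.0659 ± 0.0613 CPM per kilobase summed in female knockouts and 0.0640 ± 0.0402 in female wild types.

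Summed over all 6 members, the cluster reached 331 ± 99.2 CPM per kilobase in male knockouts, 315 ± 85.0 in male wild types, 182 ± 27.5 in female knockouts and 155 ± 37.3 in female wild types. The make-up of that sum was nearly exchanged between the sexes. Cyp4a12a and Cyp4a12b together held 92.7%, 86.1% and 91.8% of it in male knockouts, against 97.6%, 96.8% and 98.1% in male wild types. Every male knockout library lay below every male wild type library in this share, although the levels of the pair itself overlapped between the male groups. The lower share restates the higher values of other members, by which the members were chosen, so nothing further is read from it. The pair held 0% to 0.0755% in female knockouts and 0.0196% to 0.0816% in female wild types. Cyp4a14 held 1.18% to 4.06% in male knockouts and 0.0310% to 0.196% in male wild types, against 46.0% to 55.4% in female knockouts and 37.4% to 52.1% in female wild types.

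**Figure D3:**
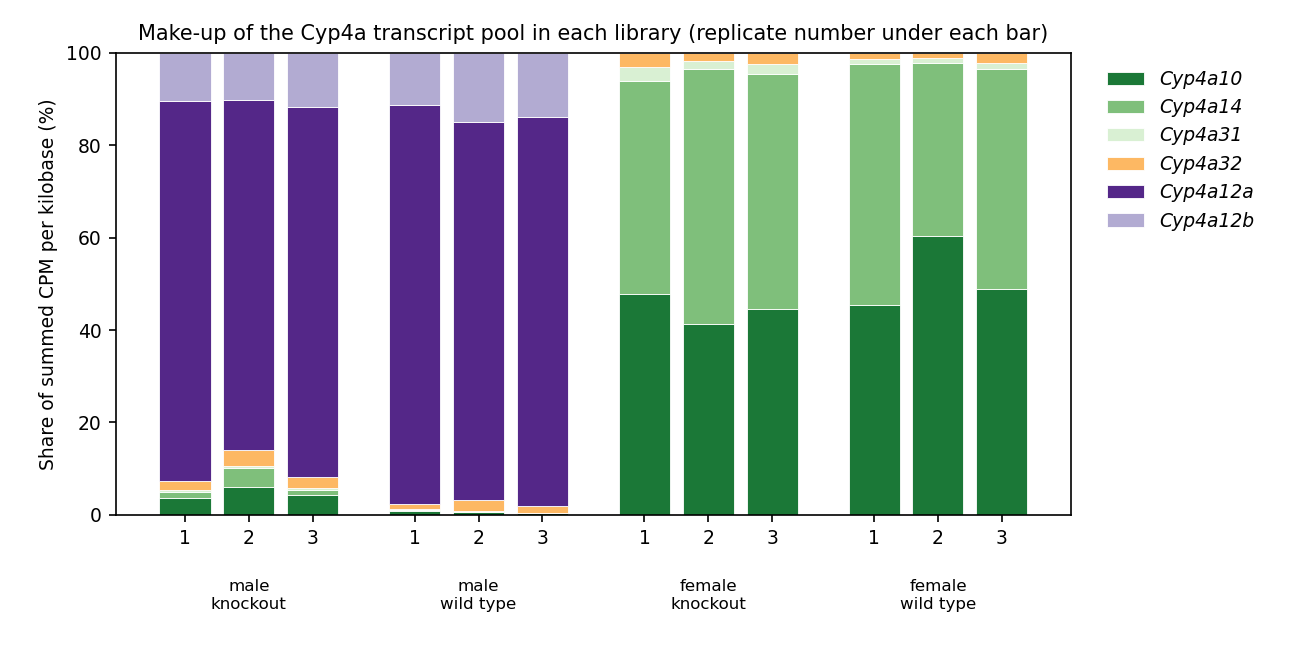
Share of the summed CPM per kilobase of the cluster (%) held by each member, 1 bar per library, with replicate numbers under the bars. The Cyp4a12 pair fills 86.1% to 92.7% of the male knockout bars and 96.8% to 98.1% of the male wild type bars, and Cyp4a10 and Cyp4a14 fill nearly all of the female bars.

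The male and female livers were compared within each genotype, tested in edgeR by quasi-likelihood over the 12 libraries with Benjamini-Hochberg adjustment over the 14003 genes. Log2 fold changes below are ± SE. Males had lower Cyp4a14, Cyp4a10 and Cyp4a31 and higher Cyp4a12a and Cyp4a12b than females in both genotypes. In knockouts 5.4% of all genes were called at an adjusted p under 0.05 (2.95% higher and 2.45% lower in males), and 5 members were. In wild types 4.49% were called (2.1% higher and 2.39% lower), and the same 5 members were. For Cyp4a14, Cyp4a10 and Cyp4a31 every male library lay below every female library of its genotype, as for 14.2% of all genes in knockouts and 13.5% in wild types. Nothing is read from these counts of members. The Cyp4a12 pair was tested only through its high male libraries and had to differ. The low male wild type values of Cyp4a14, Cyp4a10 and Cyp4a31 are among those by which the members were chosen. Their differences among wild types are therefore given without a p. Male knockout values entered that choice too, so the p-values printed for members between the sexes are not independent of it.

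Cyp4a14 was 14.9-fold lower in males than in females among knockouts (log2 fold change -3.89 ± 0.48, adjusted p = 0.000225) and 249-fold lower among wild types (-7.96 ± 0.61). With 1 library left out the difference among wild types ran from -9.46, without male wild type replicate 1, to -7.55. Cyp4a10 was 5.57-fold lower in males among knockouts (-2.48 ± 0.31, adjusted p = 0.000285) and 37.4-fold lower among wild types (-5.22 ± 0.36). For Cyp4a31 the male level was 2.99-fold lower among knockouts (-1.58 ± 0.28, adjusted p = 0.00471) and 7.16-fold lower among wild types (-2.84 ± 0.33). All 3 calls among knockouts held with any 1 library of the groups compared left out.

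Cyp4a32 did not pass edgeR's test between the sexes, and its values were of the opposite sign to those of its near copies. Every male library was above every female library of its genotype, as for 14% of all genes in knockouts and 13.4% in wild types. The fold change was 0.89 ± 0.37 among knockouts (adjusted p = 0.179) and 1.27 ± 0.39 among wild types (adjusted p = 0.0879). The difference among wild types passed without male wild type replicate 3 (1.55, adjusted p = 0.0331) and by DESeq2 (1.27, adjusted p = 0.0252), and without male wild type replicate 2 it was 0.60 (adjusted p = 0.396). With no filter on low counts it passed among knockouts (0.91, adjusted p = 0.0290) and wild types (1.30, adjusted p = 0.00084). These tests share male libraries with the comparison by which the members were chosen, so their p-values are not independent of it.

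For the Cyp4a12 pair the female counts are so few that the ratio is given with an exact 95% counting interval. Cyp4a12a had 36001 counts in male knockouts and 12 in female knockouts, a ratio of 3979 (2278 to 7702) after scaling. In wild types it had 35764 counts in males and 5 in females, a ratio of 6768 (2900 to 20846). Cyp4a12b had 4890 counts in male knockouts and 0 in female knockouts, at least 2162-fold higher in males when the female group is set at its floor of 3 counts in all. In wild types it had 5606 counts in males and 3 in females, a ratio of 1768 (605 to 8577). The intervals cover counting error only.

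Male knockouts had higher Cyp4a14, Cyp4a10 and Cyp4a31 than male wild types, whereas the male groups overlapped for the Cyp4a12 pair and for Cyp4a32. This is the comparison by which the members were chosen. Cyp4a14 averaged 16.3 ± 5.84 CPM in male knockouts and 0.705 ± 0.772 CPM in male wild types (SD, n = 3 each), 21.7-fold higher in knockouts (log2 fold change 4.44 ± 0.55, and 5.94 without male wild type replicate 1). Cyp4a10 averaged 30.5 ± 4.79 CPM in male knockouts and 4.39 ± 2.21 CPM in male wild types, 6.89-fold higher (2.78 ± 0.33). Cyp4a31 averaged 3.30 ± 1.01 CPM in male knockouts and 0.584 ± 0.137 CPM in male wild types, 5.58-fold higher (2.48 ± 0.34). Every female library lay above every male knockout library for Cyp4a10 and Cyp4a14.

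The other 3 members gave small differences between the male groups. Cyp4a32 averaged 12.4 ± 1.87 CPM in male knockouts and 8.77 ± 5.69 CPM in male wild types (0.50 ± 0.37), and without male wild type replicate 2 the fold change was 1.17. Cyp4a12a averaged 640 ± 209 CPM in male knockouts and 640 ± 162 CPM in male wild types (0.00 ± 0.37, 95% interval -0.79 to 0.80). For Cyp4a12b the means were 86.5 ± 31.0 CPM in male knockouts and 102 ± 37.1 CPM in male wild types (-0.23 ± 0.30, 95% interval -0.87 to 0.41). The direction of both turned with 1 library left out, to between -0.18 and 0.25 for Cyp4a12a and -0.49 and 0.11 for Cyp4a12b. Of all genes tested 0.0571%, 8 genes, were called in this comparison (0.0286% higher), 3 of them members and all 3 higher, from which nothing is read because they were chosen by it. Fitted with the male groups alone, the comparison called 1 gene and no member, and the fold changes of Cyp4a14, Cyp4a10 and Cyp4a31 were 4.46, 2.79 and 2.49.

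**Figure D4:**
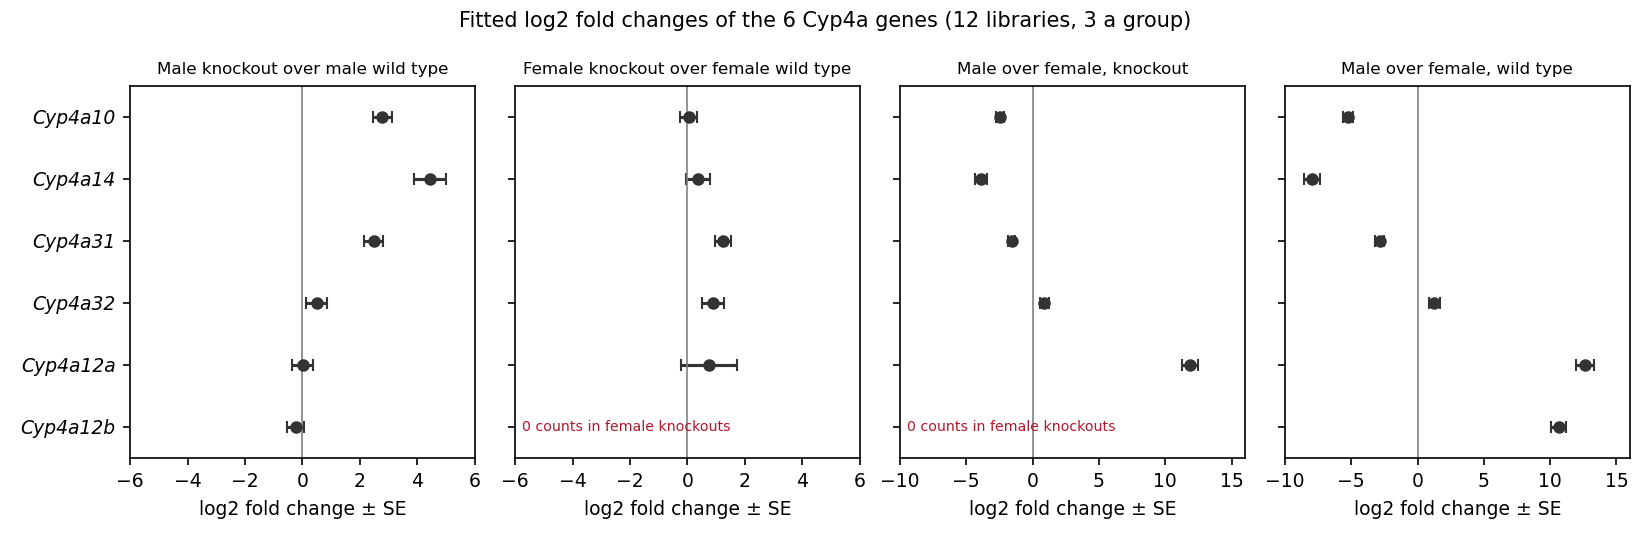
Fitted log2 fold change ± SE (horizontal axis) of each Cyp4a gene in 4 comparisons, with no point where female knockouts had 0 counts of Cyp4a12b. Cyp4a14, Cyp4a10 and Cyp4a31 lie between 2.48 and 4.44 for male knockouts over male wild types, and in both male over female panels they lie on the opposite side of 0 from the Cyp4a12 pair.

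In females the knockout comparison called 36.5% of all genes, and 1 member. Cyp4a31 rose in female knockouts, to 9.96 ± 2.81 CPM against 4.26 ± 0.577 CPM in female wild types, a 2.33-fold difference (log2 fold change 1.22 ± 0.28, adjusted p = 0.0140), with 3 of 3 knockout libraries above all wild type libraries. Given that share, and that 27.6% of all genes had every knockout library above every wild type library, this is a common outcome in these libraries. The call was lost without female knockout replicate 2 (adjusted p = 0.0610), when 4 genes were called in all, or without female wild type replicate 2 (adjusted p = 0.0563), when 5 were. It was also lost with each library's length slope as a covariate (0.89, adjusted p = 0.564), with which 10 genes were called.

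None of the other members passed in females. Cyp4a32 averaged 6.67 ± 1.35 CPM in female knockouts and 3.61 ± 1.09 CPM in female wild types (0.88 ± 0.38, adjusted p = 0.0863). Cyp4a14 averaged 242 ± 56.4 CPM in female knockouts and 187 ± 71.5 CPM in female wild types (0.37 ± 0.43, 95% interval -0.55 to 1.29). For Cyp4a10 the means were 170 ± 17.4 CPM in female knockouts and 166 ± 28.1 CPM in female wild types (0.04 ± 0.30, 95% interval -0.60 to 0.68). Summed over the Cyp4a12 pair, female knockouts had 12 counts and female wild types 8, a ratio of 1.10 (95% counting interval 0.414 to 3.11).

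The knockout effect in males minus that in females was 4.07 ± 0.69 on the log2 scale for Cyp4a14, 2.75 ± 0.44 for Cyp4a10, 1.26 ± 0.43 for Cyp4a31 and -0.38 ± 0.53 for Cyp4a32. This difference uses the male comparison, so it too is a description. Across all genes edgeR called none for it (0% of 14003), although 3145 had an unadjusted p under 0.05, and limma-voom called 0 and DESeq2 218. With 1 library left out the difference ran from 3.66 to 5.58 for Cyp4a14, the highest without male wild type replicate 1, and from 2.39 to 3.06 for Cyp4a10.

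Summing the near copies changed the account of the male comparison for one set. The sum of Cyp4a10, Cyp4a31 and Cyp4a32 averaged 46.2 ± 7.56 CPM in male knockouts and 13.7 ± 7.07 CPM in male wild types, a log2 fold change of 1.75 ± 0.30, smaller than that of Cyp4a10 or Cyp4a31 alone. Cyp4a32 made up 26.3% to 27.8% of that sum in male knockouts and 47.2% to 71.7% in male wild types, whereas its share was 2.95% to 4.21% in female knockouts and 1.32% to 2.92% in female wild types. Left without Cyp4a32, a choice made after its values were seen, the sum of Cyp4a10 and Cyp4a31 gave 2.75. With male wild type replicate 2 left out, the 3-gene sum gave 2.21. Whether the counts of Cyp4a32 in males are its own or come from its near copies was not tested.

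Between the sexes the 3-gene sum kept the direction of Cyp4a10. It averaged 46.2 ± 7.56 CPM in male knockouts and 187 ± 18.7 CPM in female knockouts (-2.01 ± 0.30, adjusted p = 0.00122), and 13.7 ± 7.07 CPM in male wild types and 173 ± 28.1 CPM in female wild types (-3.66 ± 0.33). In females it gave 0.11 ± 0.29 for knockouts over wild types (adjusted p = 0.790). The sum of Cyp4a12a and Cyp4a12b averaged 727 ± 239 CPM in male knockouts and 741 ± 195 CPM in male wild types (-0.03 ± 0.35). Cyp4a12b held 11.1% to 12.8% of the counts of the pair in male knockouts and 11.4% to 15.4% in male wild types. Cyp4a14 shares no window with the others, and its male values do not depend on such sums.

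No other gene of the Cyp4 family was called in the male comparison. Of 21 further Cyp4 rows, 7 had enough counts, and none was called in either knockout comparison. Cyp4a29 and Cyp4a30b, which lie in the same cluster, had 0 counts in all 12 libraries. Cyp4f14, a leukotriene omega-hydroxylase, averaged 322 ± 38.6 CPM in male knockouts and 306 ± 34.2 CPM in male wild types (0.07), and 439 ± 65.9 CPM in female knockouts and 487 ± 53.5 CPM in female wild types (-0.15). Of 20 tested neighbours within 1 Mb of the cluster, 1 rose and 2 fell in female knockouts, against 36.5% of all genes called there. None was called in male knockouts, where 0.0571% of all genes were, or between the sexes, where 5.4% were among knockouts and 4.49% among wild types.

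PPARalpha targets of fatty acid oxidation, a list that leaves the members out, had 46 of 50 genes tested. In male knockouts none was called in either direction, where 0.0571% of all genes were called, with a median log2 fold change of -0.02 against -0.003 over all genes. Acot1, a cytosolic acyl-CoA thioesterase, had 9.97 ± 4.78 CPM in male knockouts and 7.63 ± 1.52 CPM in male wild types (0.37 ± 0.32). Ehhadh, the peroxisomal bifunctional enzyme, gave -0.03 ± 0.20. Vnn1, a pantetheinase, gave -0.16 ± 0.33, the lipid droplet protein gene Plin2 gave -0.41 ± 0.23, and Pdk4, a brake on pyruvate oxidation, gave -0.44 ± 0.35.

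In female knockouts 5 of the 46 PPARalpha targets rose and 12 fell (median -0.09 against 0.05 over all genes), in a comparison that called 17.7% of all genes higher and 18.8% lower. Cd36, a fatty acid transporter, fell to 23.4 ± 4.08 CPM in female knockouts against 65.9 ± 16.1 CPM in female wild types (-1.49 ± 0.21, edgeR adjusted p = 0.0100). Acot1 fell as well (-1.15 ± 0.31, edgeR adjusted p = 0.0167), as did Pex11a, a peroxisome division gene (-0.73 ± 0.17), and the fatty acid transporter gene Slc27a1 rose (1.35 ± 0.32). Ehhadh, Plin2, Vnn1 and Pdk4 did not pass. These calls rest on the same female libraries without which 4 or 5 genes were called over the whole table. They also carry the limit from the length slope given above for Cyp4a31 in females.

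Between the sexes 8 of the 46 were lower in males in each genotype and none was higher, where 2.45% of all genes were lower among knockouts and 2.39% among wild types. A gene near 0 in males, such as Acot3, entered the test through the females and had to differ, so nothing is read from that count. Acot3, a peroxisomal acyl-CoA thioesterase, had 0.244 ± 0.172 CPM in male knockouts against 117 ± 23.9 CPM in female knockouts, and 0.531 ± 0.503 CPM in male wild types against 153 ± 45.4 CPM in female wild types. Its relative Acot4 was also lower in males (-2.64 ± 0.21 in knockouts and -2.66 ± 0.21 in wild types), and so was Vnn1 (-2.11 ± 0.32 and -2.47 ± 0.33). None of these genes was called between the male groups, and Acot4 averaged 18.8 ± 2.52 CPM in male knockouts and 18.6 ± 4.00 CPM in male wild types.

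Of 21 tested male-biased genes known to depend on growth hormone pulses, none was called in male knockouts against male wild types, where 0.0571% of all genes were. Of these 20 were higher in males among knockouts and 18 among wild types, against 2.95% and 2.1% of all genes. Cyp7b1, an oxysterol hydroxylase, averaged 960 ± 29.0 CPM in male knockouts and 1232 ± 329 CPM in male wild types (-0.36 ± 0.23). Cyp2d9 gave -0.10 ± 0.32 and the fatty acid elongase gene Elovl3 0.03 ± 0.30 in the same comparison. Of 28 tested female-biased genes, none was called in male knockouts, and 28 were lower in males among knockouts and 27 among wild types. In female knockouts 2 female-biased genes rose and 9 fell (median -0.41), and 3 pulse-dependent genes rose and 7 fell (median -0.44). That comparison called 17.7% of all genes higher and 18.8% lower, with a median of 0.05. These female calls share the limit given above for that comparison. Listed genes near 0 in one sex entered the test through the other and had to differ, so nothing is read from these counts between the sexes. Cyp2b9 had too few counts to be tested.

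**Figure D5:**
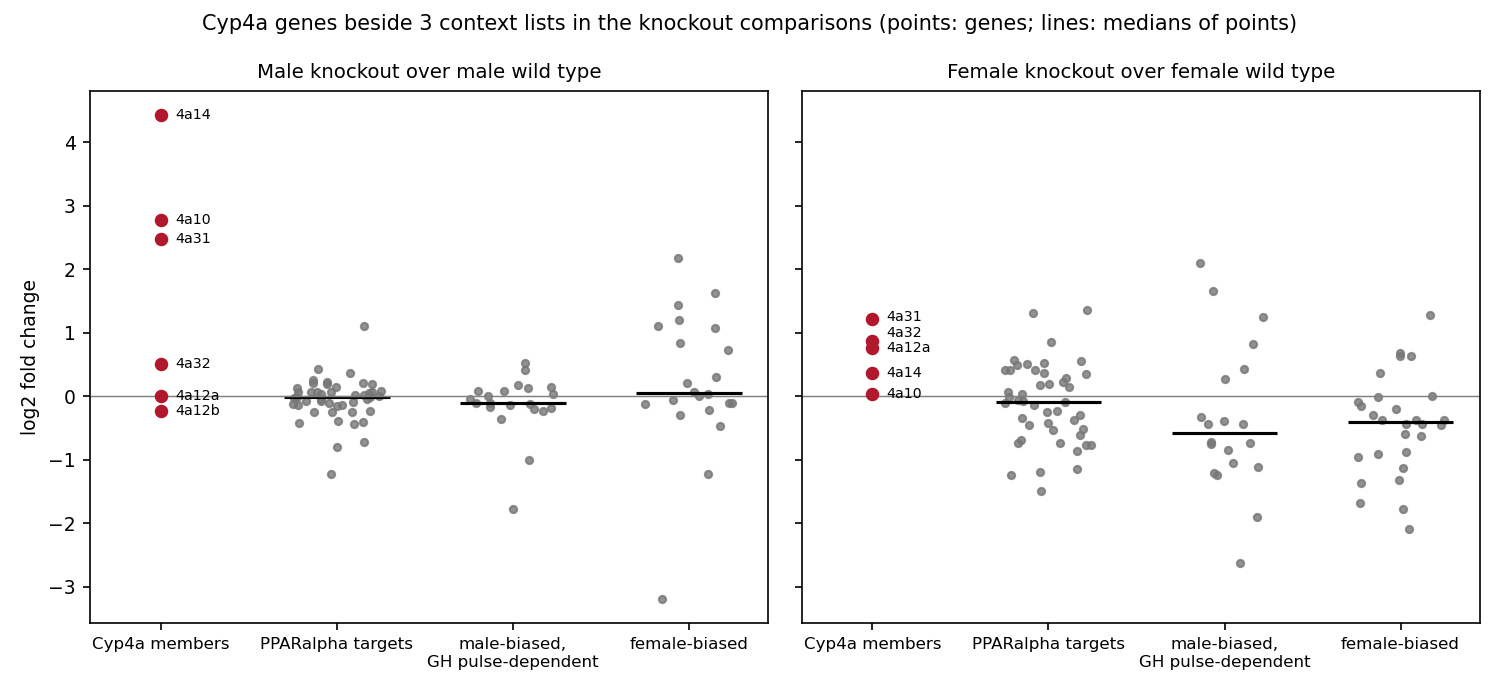
Log2 fold changes (vertical axis) of Cyp4a members (red, labelled) and of 3 gene lists (grey, with their medians) in the male and the female knockout comparison, leaving out genes with 0 counts in a whole group. In males the 46 PPARalpha targets lie around their median of -0.02, while Cyp4a14, Cyp4a10 and Cyp4a31 lie between 2.48 and 4.44. The members were chosen by this male comparison and the lists were not, so nothing is read from the gap between them.

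Regulators were tested as a list of 29 genes. None was called in male knockouts, and 11 rose and 2 fell in female knockouts, where 17.7% of all genes were called higher and 18.8% lower. The female calls rest on the libraries without which 4 or 5 genes were called in all. The limit from the length slope, given above for Cyp4a31 in females, holds for these calls too. Ppara itself averaged 32.7 ± 14.4 CPM in male knockouts and 30.1 ± 9.43 CPM in male wild types (0.12 ± 0.43), and 49.7 ± 26.2 CPM in female knockouts and 15.4 ± 1.48 CPM in female wild types (1.69 ± 0.44, edgeR adjusted p = 0.0157). Its partner Rxra gave 0.23 ± 0.41 in males and 1.72 ± 0.42 in females, where it was called. Stat5b, which relays growth hormone pulses, gave 0.25 ± 0.22 in males and 1.08 ± 0.22 in females, where it was called. Bcl6, known as a male-biased repressor, averaged 5.12 ± 0.179 CPM in male knockouts and 17.5 ± 3.39 CPM in male wild types (-1.77 ± 0.40, edgeR adjusted p = 0.385), and was not called. In females it averaged 12.0 ± 7.26 CPM in knockouts and 3.81 ± 1.49 CPM in wild types. Among knockouts its mean was thus higher in females than in males. Cux2, a female-specific repressor of male-biased genes, had 0.171 ± 0.104 CPM in male knockouts and 0.106 ± 0.112 CPM in male wild types, and rose in female knockouts (1.29 ± 0.33, edgeR adjusted p = 0.0152).

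The fate of omega-hydroxylated acids was followed in a list of 21 peroxisomal and related genes, some of them also in other lists here. None was called in male knockouts (median -0.03), and in female knockouts 1 rose and 5 fell (median -0.17), in a comparison that called 36.5% of all genes. Abcd2, a peroxisomal importer of very long-chain acyl-CoA, had 1.70 ± 0.970 CPM in male knockouts and 0.772 ± 0.317 CPM in male wild types, and these groups overlapped. It had 75.9 ± 8.59 CPM in female knockouts and 75.5 ± 1.14 CPM in female wild types.

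Abcd2 was also among the genes whose profile over the 12 libraries was closest to that of Cyp4a14, by the root mean square difference of centred log2 CPM over 10387 candidate genes. Closest to Cyp4a14 were Nipal1 (1.46), Abcd2 (1.49), Eci3 (1.79) and Sult2a6 (1.82), against a standard deviation of 3.52 for the profile of Cyp4a14 itself. Closest to the summed Cyp4a10, Cyp4a31 and Cyp4a32 were Rcan2 (0.51), Cyp2a4 (0.52), Slc39a5 (0.55) and Cyp39a1 (0.57), against a standard deviation of 1.63. Cyp2a4, a female-predominant steroid hydroxylase, averaged 267 CPM in male knockouts and 98.2 CPM in male wild types, against 1573 CPM in female knockouts and 2129 CPM in female wild types. Closest to the summed Cyp4a12 pair were the Y-linked genes Ddx3y (1.43) and Eif2s3y (1.59), then Mup21 (1.85) and Hsd3b5 (1.88), against 5.80. These likenesses follow mainly the difference between the sexes, which all 12 libraries share, and are given as a description.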

How the data were processed

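Raw counts per gene in 12 libraries were used as deposited, and the authors' table also gives symbols, mm39 positions and gene lengths. HISAT2 2.0.5, DESeq2 and mm39 are named, with no role stated, in the submitters' processing notes. The counting program and the strand it counted were not given in the sources used here. Per the labels' protocols, libraries were made from mRNA bound by poly-T beads, with random hexamers as primers. Columns were matched to samples by library number.

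Genes were kept with edgeR's filterByExpr by group (14003 of 56748, holding 99.9% of the counts). Counts were normalised by TMM and fitted with edgeR 4.0.16 in R 4.3.3, with 1 mean per group over all 12 libraries (8 residual degrees of freedom, biological coefficient of variation 25.9%). The 5 contrasts were tested by quasi-likelihood F tests, with Benjamini-Hochberg adjustment within each contrast. SEs are approximate (log2 fold change divided by the root of F). Levels are CPM of the TMM-scaled library size. Sums of near copies replaced their rows in the same fit. Ratios on few counts have exact 95% counting intervals, and a group of 0 counts has a floor of 3. No 2 replicates were the same library within sampling noise (15.8 to 141 chi-square units per degree of freedom). Sequences came from GENCODE vM21 transcripts (all 6 members matched), aligned with Biopython 1.88.

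The members and gene lists were chosen with earlier results of these data known. By rule the text names all members, the Cyp4 genes within the cluster, and Cyp4f14 as the other Cyp4 gene of highest mean over all libraries (chosen after its values were seen). It also names 6 preset PPARalpha targets and up to 3 called ones a contrast, 5 preset sex-biased genes, 5 regulators and the 4 genes most alike to each profile. A few genes that fall under this rule are not reported here. Alternatives were RLE size factors, DESeq2 1.42.0, limma-voom 3.58.1, other filters, fits of single comparisons, a replicate block, corrections for gene length, and leaving out each library.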

Additional observations from a re-analysis of the deposited data

How the results depend on the processing

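The calls of Cyp4a10, Cyp4a14 and Cyp4a31 between the sexes among knockouts held under every alternative run, including each library left out. They use the male knockout values that entered the choice of members, so their holding adds no independent support. The male knockout fold change of Cyp4a14 ran from 4.02 to 5.94 and that of Cyp4a10 from 2.43 to 3.09 with 1 library left out. Depth limits Cyp4a14 and Cyp4a31 in male wild types and the Cyp4a12 pair in females. The cause of the changes below was not tested, and nothing is read from calls of members in males or for the difference between the sexes, since these values chose the members.

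Genes called in male knockouts numbered 101 with no filter on low counts, 34 by DESeq2, 18 with the length slope and 1 in a fit of the male groups alone, which called 0 members. Without a filter 1451 genes and 2 members were called for the difference between the sexes in the knockout effect, 1694 for sex in knockouts, 1700 for sex in wild types and 2 members in females. DESeq2 called 218 genes and 1 member for that difference, 1395 for sex in knockouts and 1226 for sex in wild types. With the length slope as a covariate 10 genes and 0 members were called in females, and 3 genes and 1 member for that difference. Females alone and the removed length trend each gave 2 members in females.

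The sum of Cyp4a10, Cyp4a31 and Cyp4a32 gave 1.74 in male knockouts with no filter, 1.76 by DESeq2, 1.86 by limma-voom, 1.70 with the length slope and 2.75 without Cyp4a32, and the difference between the sexes was 1.63 with no filter. In females this sum was -0.66 with the length slope. The Cyp4a12 sum, near 0 in the knockout comparisons, changed sign in females with limma-voom (-0.50) and the length slope (-1.05), in males with the stricter filter (0.00039) and the removed trend (0.0584), and for the difference with limma-voom (0.45) and the length slope (0.82).

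Single members changed sign as follows. Cyp4a12a in males gave -0.0041 with no filter, -0.026 in limma-voom, -0.19 with the length slope and -0.028 for the Cyp4a12 sum. In females the length slope gave -0.56 for Cyp4a10 and -0.38 for Cyp4a12a. For the difference it gave 0.31 for Cyp4a32 and 0.19 for Cyp4a12a. The sums are of another sign than some single members. The Cyp4a12 sum gave 0.12 in females and -0.14 for the difference, unlike Cyp4a12b. The 3-gene sum gave 1.64 for the difference, -2.01 for sex in knockouts and -3.66 for sex in wild types, unlike Cyp4a32.

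With 1 library left out, genes called ranged from 4 to 4227 in females (2909 and 2927 without female knockout or wild type replicate 3), from 5 to 18 in males, from 0 to 2 for the difference, from 440 to 953 for sex in knockouts and from 379 to 781 for sex in wild types. Members called ranged from 0 to 1, 2 to 3, 0 to 1, 5 to 5 and 5 to 6. The 3-gene sum ranged from -0.0181 to 0.21 in females, 1.45 to 2.21 in males, 1.34 to 2.11 for the difference, -2.15 to -1.94 for sex in knockouts and -4.11 to -3.35 for sex in wild types. The Cyp4a12 sum ranged from -0.71 to 0.65, -0.21 to 0.22, -0.68 to 0.68, 11.5 to 12.9 and 11.9 to 12.7. Cyp4a10 in females ranged from -0.0941 to 0.14, Cyp4a12a from -0.0675 to 1.52 in females, -0.18 to 0.25 in males and -1.52 to 0.0674 for the difference, Cyp4a12b from -0.49 to 0.11 in males, and Cyp4a32 from -0.65 to 0.30 for the difference.

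Replicate numbers are shared between groups in the labels. Deviations of same-numbered libraries correlated between -0.80 and 0.45, above 0.1 in 4 of 18 pairs, and 2 of 18 correlated best with their own number, so the numbers were not taken to pair the samples. With the replicate number as a block 3365 genes were called in females and 415 for sex in wild types, and Cyp4a12a in males gave -0.0516. No member's call changed under the block.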
